A study of Glycine max with 6 samples.

Results

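In drought-stressed V6 leaves of soybean, the matches of the transcription factor (TF) AREB1 were about 4-fold higher than in well-watered leaves, and the response genes matched to HVA22D and to a GRAM domain protein were more than 10-fold higher. The match of the related factor ABF1 lay 5.31-fold lower. The kinase and phosphatase genes had fold changes of at most 2.59 in either direction. These 10 genes were grouped under abscisic acid (ABA) signaling and response, among the 66184 gene IDs of the array. They were taken by gene ID: 2 matches of OST1, 3 PP2C phosphatases, 2 matches of AREB1, and 1 match each of ABF1, HVA22D and a GRAM domain protein. Whether the 3 PP2C phosphatases act in ABA signaling was not tested. The 5 factors and response genes were listed by the study for their change in these same V6 leaves. The other 5 came from the gene descriptions, with results of these data already known. Because the 2 sets were chosen differently, the sizes of their differences cannot be compared. The differences between drought-stressed and well-watered plants are therefore a description, and no test of the 10 genes is offered as support.

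The material was the 4th trifoliate leaf of cultivar Williams 82, with 1 array per plant. All plants stood 3 to a 6-liter pot, and treatment began at stage V6, a late vegetative stage, given as 28 days after sowing in the treatment protocol and as 35 days in the growth protocol. Plants 1, 2 and 4 went 6 days without water, until the soil held 5% moisture, and plants 14, 15 and 16 were watered as usual. The paper describes the plants as beginning to bloom at this collection, and names the leaves V6. Of the 4 biological repeats mentioned for each treatment, 3 are present here as arrays, and nothing says which plants shared a pot. Every value is a log2 signal relative to the median of that probe over the 6 arrays. Such values show changes between plants and no absolute level, so the labelled tissue could not be checked by the presence of its markers. In whole leaves, fewer cells of a type and less RNA per cell cannot be told apart. The medians of the 6 arrays ran from -0.097 to 0.13, and the median difference of all probes was -0.050.

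ABA is the main hormone of the response to water shortage. In *Arabidopsis*, ABA bound to its receptors blocks clade A protein phosphatases of type 2C (PP2Cs). This frees SnRK2 kinases such as OST1, which phosphorylate bZIP factors of the AREB/ABF group. Those factors bind ABA-responsive elements in promoters of stress genes. OST1 itself is best known for closing stomata.

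Calls come from limma, a linear model fitted to all probes, and needed both an adjusted p under 0.05 and a change of 2-fold or more. Of the 10 genes, 5 were called higher and 2 lower in drought-stressed leaves, and 3 were not called. Of all probes, 9.46% were called, 4.33% higher and 5.14% lower. The study chose 5 of these genes by this same comparison, so nothing is read from the member count. Of those 5, 4 were called higher and 1 lower. Of the 5 taken from gene descriptions, 1 was called higher, 1 lower and 3 not called. The methods' t-test, at the same thresholds, called the 5 genes chosen by the study and none of the other 5, against 5.75% of all probes. The plants of the 2 groups did not overlap for 8 of the 10 genes, as for 31.3% of all probes.

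**Figure D1:**
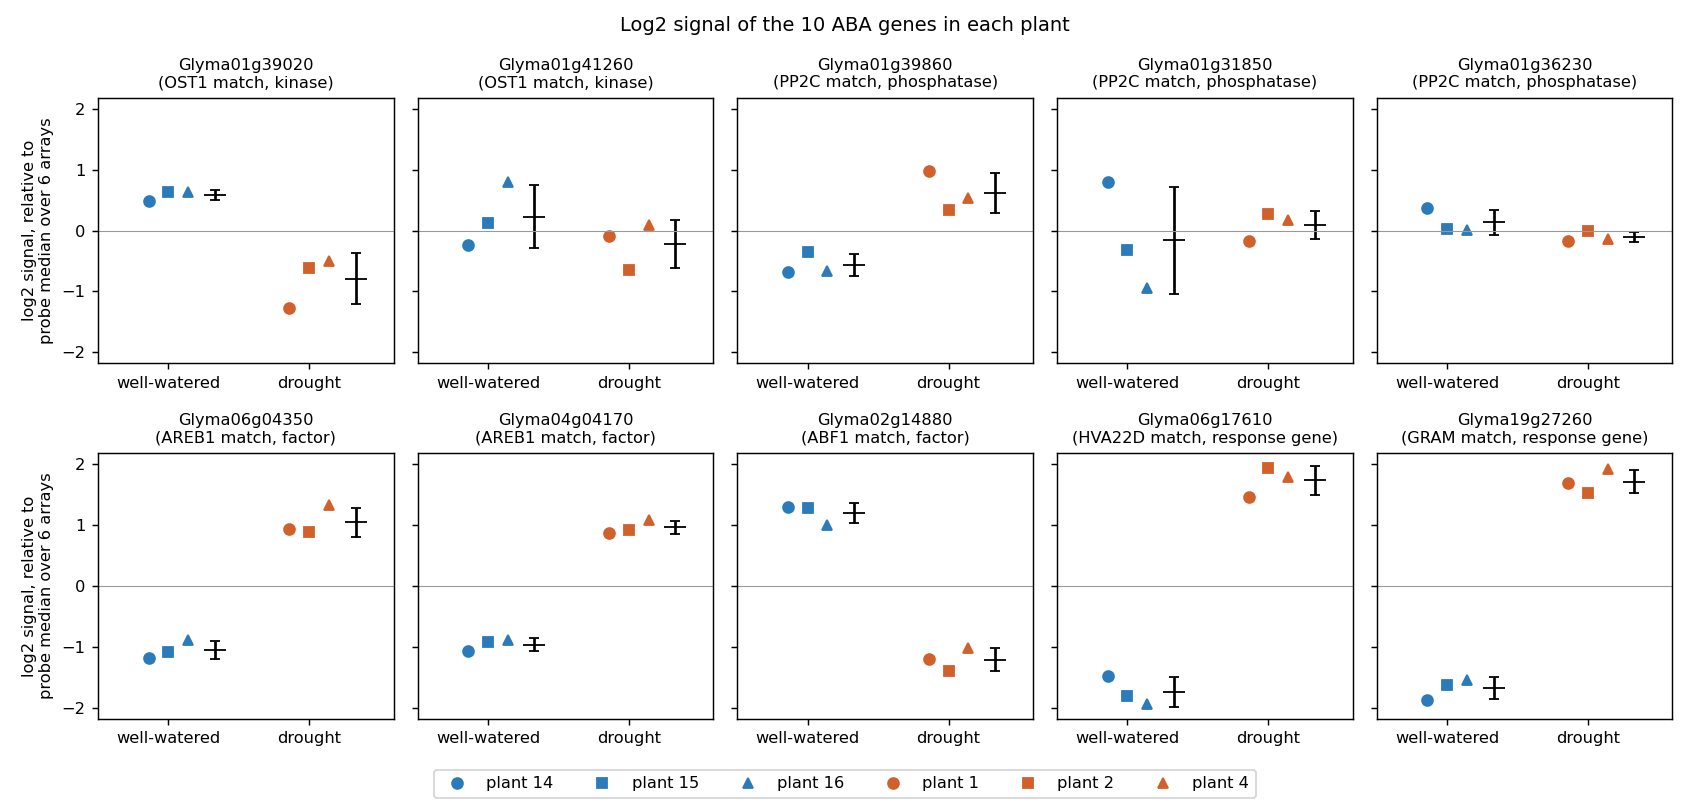
Log2 signal relative to the probe median (y axis) of each of the 10 genes in 3 well-watered (blue) and 3 drought-stressed (orange) plants, 1 point per plant, with the mean ± SD in black. The 2 groups stand far apart in the lower row of factors and response genes, and overlap for Glyma01g41260 and Glyma01g31850 in the upper row.

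Among the kinase genes, Glyma01g39020 was lower in drought-stressed leaves and Glyma01g41260 was not called. Both are best matched by OST1, an SnRK2 kinase that carries the ABA signal. Their closest rice kinases in the gene descriptions differ, and are SAPK10 for Glyma01g39020 and SAPK3 for Glyma01g41260. In rice, SAPK10 is activated by ABA and by osmotic stress, whereas SAPK3 is activated by osmotic stress.

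Glyma01g39020 stood at 0.49, 0.63 and 0.63 in well-watered plants 14, 15 and 16, and at -1.27, -0.61 and -0.49 in drought-stressed plants 1, 2 and 4. The well-watered plants were close to each other, and drought-stressed plant 1 lay clearly below the other two. The mean was 0.58 ± 0.080 (SD, n = 3) with water and -0.79 ± 0.42 (SD, n = 3) under drought. The log2 difference, drought-stressed minus well-watered, was -1.37 (standard error 0.22). Of all probes, 3.13% had a lower difference.

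Glyma01g41260 stood at -0.23, 0.13 and 0.79 in well-watered plants 14, 15 and 16, and at -0.094, -0.65 and 0.094 in drought-stressed plants 1, 2 and 4. The groups overlapped, with plant 16 above all others and plant 2 below all others. Its log2 difference was -0.45 (standard error 0.28), and it lay between -0.68 and -0.17 when each plant was left out in turn. Within plants, the value of this gene minus that of Glyma01g39020 was -0.35 ± 0.46 (SD, n = 3) with water and 0.57 ± 0.61 (SD, n = 3) under drought. The differences of the 2 genes were thus 0.93 log2 apart (standard error 0.44), with plant values that overlapped between the groups.

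Of 3 phosphatase genes, Glyma01g39860 was higher under drought, and Glyma01g31850 and Glyma01g36230 were not called. PP2Cs form a large family of phosphatases with many functions. The best *Arabidopsis* matches of the 3 genes are AT4G33920, AT5G36250 and AT3G51470. None of these is a clade A phosphatase such as ABI1, ABI2 or HAB1, the phosphatases that ABA receptors bind. The 3 genes are thus named PP2C by type, and whether they act in ABA signaling was not tested.

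Glyma01g39860 stood at -0.67, -0.35 and -0.67 in plants 14, 15 and 16 with water, and at 0.99, 0.35 and 0.54 in plants 1, 2 and 4 under drought. All drought-stressed plants were above all well-watered plants, with plant 1 the highest. Drought-stressed minus well-watered, it differed by 1.19 log2 (standard error 0.20), a fold of 2.28. Left out in turn, single plants moved it between 1.00 and 1.33.

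Glyma01g31850 differed more among well-watered plants than between the groups. It stood at 0.79, -0.32 and -0.94 in plants 14, 15 and 16, and at -0.17, 0.28 and 0.17 in plants 1, 2 and 4. All drought-stressed plants fell inside the well-watered range of 1.74 log2. Its log2 difference was 0.25 (standard error 0.37) and turned to -0.14 without well-watered plant 16. The SD of the well-watered plants, 0.88, was exceeded by 0.843% of all probes.

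Glyma01g36230 stayed within a narrow band under drought, with an SD of 0.089. It stood at 0.38, 0.020 and 0.0066 in plants 14, 15 and 16, and at -0.18, -0.0066 and -0.14 in plants 1, 2 and 4. The groups did not overlap, but only 0.013 log2 separated the lowest well-watered from the highest drought-stressed plant. With a standard error of 0.17, the log2 difference was -0.24, and 26.1% of all probes had a lower one.

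**Figure D2:**
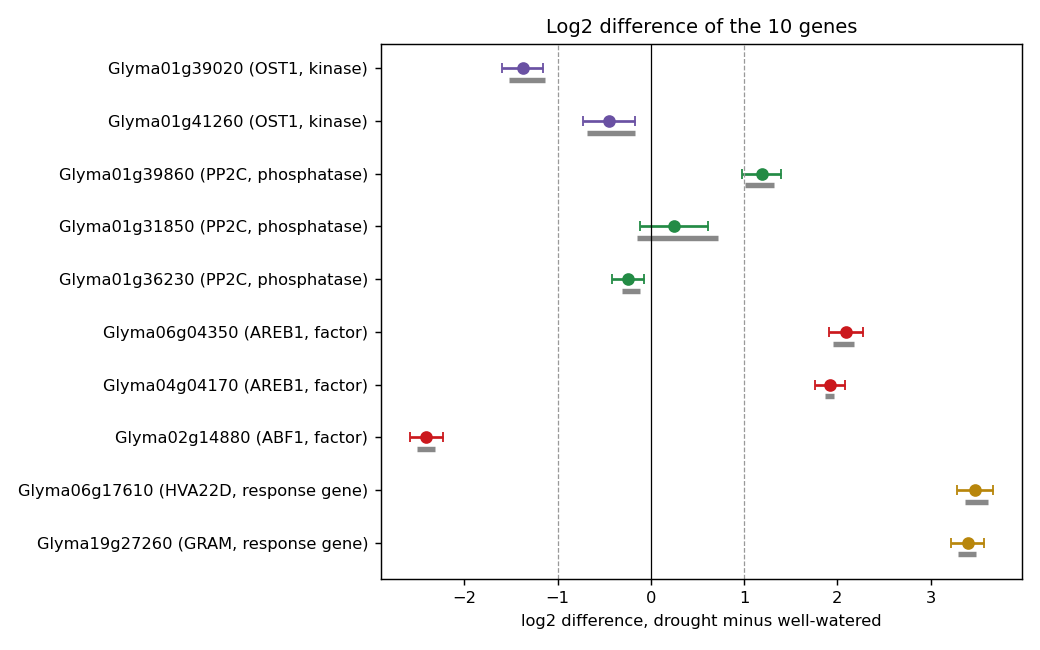
Log2 difference, drought-stressed minus well-watered (x axis), of the 10 genes in order of role, with the standard error from limma. The gray bars span the values with each plant left out in turn, and dashed lines mark a fold of 2. The bar of Glyma01g31850 crosses 0. Those of the 3 factors, the 2 response genes, Glyma01g39020 and Glyma01g39860 stay beyond the dashed lines, the last only just, from 1.005.

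Among the factor genes, the matches of AREB1 and the match of ABF1 changed in opposite directions. AREB1, also named ABF2, and ABF1 are both bZIP factors that bind ABA-responsive elements. Both AREB1 matches, on chromosomes 4 and 6, were higher in drought-stressed leaves, and the ABF1 match on chromosome 2 was lower. By their descriptions, Glyma04g04170 is moderately and Glyma06g04350 weakly similar to AREB1, and Glyma02g14880 is moderately similar to ABF1.

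Glyma06g04350 stood at -1.17, -1.08 and -0.88 in well-watered plants 14, 15 and 16, and at 0.94, 0.88 and 1.33 in drought-stressed plants 1, 2 and 4. The groups were 1.77 log2 apart at their closest. The log2 difference was 2.10 (standard error 0.18), a fold of 4.28.

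Glyma04g04170 stood at -1.07, -0.92 and -0.88 in plants 14, 15 and 16, and at 0.88, 0.93 and 1.08 in plants 1, 2 and 4. The SD was 0.10 with water and 0.11 under drought, and the gap between the groups was 1.76 log2. With a standard error of 0.16, the log2 difference was 1.92, a fold of 3.79.

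The AREB1 matches followed each other closely. In both, plant 14 was the lowest of all 6 and plant 4 the highest. Within plants, Glyma06g04350 minus Glyma04g04170 was -0.10, -0.16 and -0.0016 in plants 14, 15 and 16, and 0.057, -0.045 and 0.24 in plants 1, 2 and 4. The differences of the 2 genes were 0.17 log2 apart (standard error 0.097). The root mean square difference of their 6 values was 0.13. Such closeness was shared by other genes, since 23 other probes lay nearer to Glyma06g04350 and 24 nearer to Glyma04g04170. The nearest to Glyma06g04350 were Glyma07g40310, Glyma10g01090 and Glyma07g09270, at 0.052, 0.060 and 0.091. The nearest to Glyma04g04170 were Glyma17g03510, Glyma16g01640 and Glyma04g02330, at 0.072, 0.075 and 0.085. The tables used here describe none of these 6 genes.

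Glyma02g14880, the ABF1 match, stood at 1.30, 1.29 and 1.01 in plants 14, 15 and 16, and at -1.20, -1.40 and -1.01 in plants 1, 2 and 4. All well-watered plants were more than 2 log2 units above all drought-stressed plants, with a gap of 2.03. Its log2 difference was -2.41 (standard error 0.18), and 0.906% of all probes had a lower one. Its size was larger than that of either AREB1 match, with the sign reversed.

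The match of AREB3, Glyma03g00580, another ABA-responsive element binding factor, is the 1 further gene of this group in the descriptions used here. It stood between -0.94 and -0.81 in the 3 well-watered plants and between 0.81 and 1.07 in the 3 drought-stressed plants. Its log2 difference was 1.79 (standard error 0.16), close to those of the AREB1 matches. The study listed it from these same samples, so it is not independent of them. The 4 other genes described as bZIP factors, all on chromosome 1, had log2 differences between -0.28 and 0.19, and 0 of 4 were called by limma or by the methods' t-test, with 0 at an unadjusted limma p under 0.05.

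Among the 5 genes that the study listed for their change, the 2 response genes had the largest differences. HVA22 proteins are small membrane proteins first found in barley as products of an ABA-induced gene. GRAM domains bind membrane lipids, and the *Arabidopsis* match AT5G13200 is described as related to ABA-responsive proteins.

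Glyma06g17610, the HVA22D match on chromosome 6, stood at -1.47, -1.80 and -1.94 in plants 14, 15 and 16, and at 1.47, 1.95 and 1.80 in plants 1, 2 and 4. The gap between the groups was 2.94 log2, against an SD of 0.24 in each group. The log2 difference was 3.48 (standard error 0.20), a fold of 11.1, and 0.355% of all probes had a higher one.

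Glyma19g27260, the GRAM domain gene on chromosome 19, stood at -1.88, -1.62 and -1.53 in plants 14, 15 and 16, and at 1.70, 1.53 and 1.92 in plants 1, 2 and 4. The gap between the groups was 3.07 log2. With a standard error of 0.18, the log2 difference was 3.40, a fold of 10.5.

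These genes had nearly equal differences but did not order the plants alike. The log2 difference of Glyma06g17610 exceeded that of Glyma19g27260 by 0.081 (standard error 0.31). Drought-stressed plant 2 was the highest for the HVA22D match and the lowest for the GRAM domain gene. Among well-watered plants, plant 14 was the highest for the former and the lowest for the latter.

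**Figure D3:**
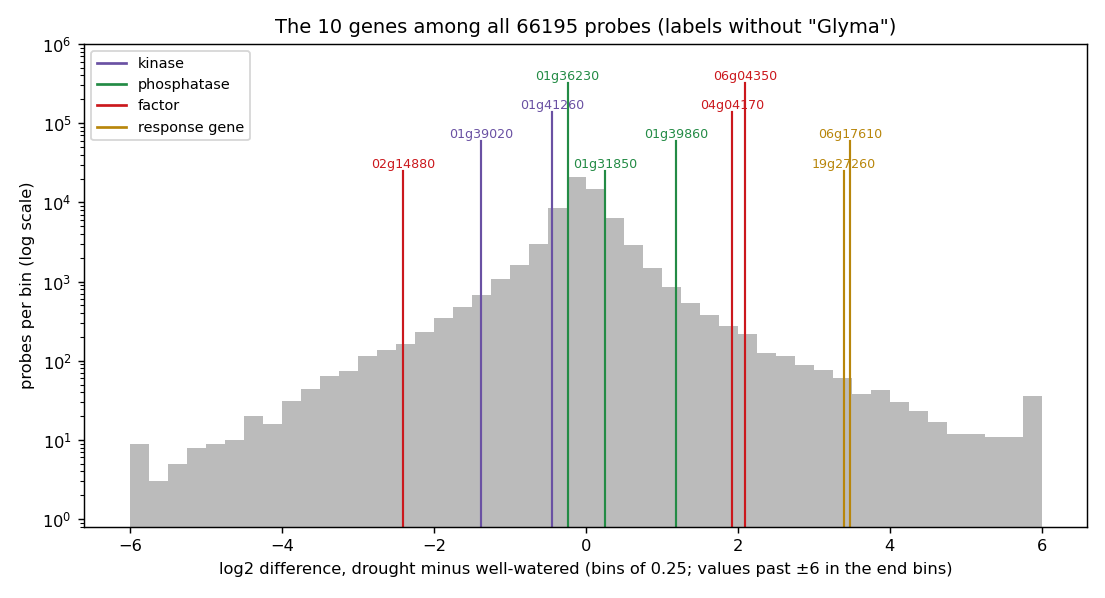
Number of probes (y axis, log scale) by log2 difference, drought-stressed minus well-watered (x axis), over all 66195 probes, with lines at the 10 genes colored by role. The response genes lie in the upper tail, with 0.355% and 0.378% of probes beyond them, and Glyma01g31850 and Glyma01g36230 lie in the central peak.

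Of the 5 genes that the descriptions used here name as HVA22 proteins, 2 were called higher (against 4.33% of all probes), 0 lower and 3 not called, with a median log2 difference of 0.35 against -0.050 for all probes. Both called genes are HVA22D matches that the study listed for their change in these samples, so nothing is read from this count or median. Their descriptions grade Glyma06g17610 as weakly similar to HVA22D and Glyma10g25680 as very weakly similar. The second of these, Glyma10g25680, stood between -1.48 and -0.74 with water and between 0.74 and 1.42 under drought, with a log2 difference of 2.17 (standard error 0.25). The 3 on chromosome 1 match other family members. The HVA22K match Glyma01g38370 had a log2 difference of 0.35 (adjusted p = 0.39 from limma). The HVA22C match Glyma01g05370 had one of -0.17 (adjusted p = 0.64), and Glyma01g06560 had one of 0.036 (adjusted p = 0.96). The sign of this last value changed with array weights and without well-watered plant 16 or drought-stressed plant 1.

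Further kinases and phosphatases were few in these descriptions. Over all probes, limma called 9.46% and the methods' t-test 5.75%. Of 4 other genes whose descriptions name SNF1-related or calcium-dependent kinases, among them an adapter of such a kinase, 0 were called by limma or by the methods' t-test and 2 had an unadjusted limma p under 0.05, with log2 differences from -0.93 to 0.42. One of them, the CIPK10 match Glyma01g32400, had a log2 difference of -0.77 and an adjusted p of 0.029 from limma, under the fold of 2. Of 4 other genes whose descriptions name protein phosphatases, 0 were called by either test and 1 had an unadjusted limma p under 0.05, with log2 differences from -0.93 to 0.31. The CDPK-related kinase Glyma01g39090 is in both groups by its description and has the -0.93. It is also the 1 gene of the phosphatase group with an unadjusted limma p under 0.05. Without it, the log2 differences of that group ran from -0.42 to 0.31. The PLL1 match Glyma01g40780, a further PP2C-type phosphatase, was at 0.31 (adjusted p = 0.45 from limma). These 3 genes, and the FAMA match given next, were named after their values were seen. No description used here names an ABA receptor, ABI3, ABI4 or a LEA protein, so those steps of the pathway are not analysed here.

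Marker genes of leaf cell types were nearly absent from the descriptions used. Those of guard cells gave 1 gene, the match of the guard cell factor FAMA (Glyma01g23230), at -0.79 (adjusted p = 0.027 from limma), under the fold of 2. Those of photosynthetic cells gave 1 gene, the match of the antenna protein LHCB4.2 (Glyma01g28810), which fell with a log2 difference of -1.77 (adjusted p = 6.6e-05 from limma). Phloem markers gave 0 genes. Their part in the differences of the 10 genes was not tested.

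Over all probes, the median SD was 0.24 among well-watered and 0.18 among drought-stressed plants. Glyma01g39020 had an SD 5.26 times larger under drought than with water, and only 8.10% of all probes had a larger SD under drought while 92.2% had a larger one with water. Its SDs under drought and with water were 0.43 and 0.19 with arrays centered on their medians, and 0.50 and 0.16 with quantile normalization, so the size of this ratio depended on the scaling. Glyma01g41260 was variable in both groups, with SDs of 0.52 and 0.39, exceeded by 7.80% and 10.3% of probes. Glyma01g31850 was more variable with water, where its SD was 3.81 times that under drought. The SD was larger under drought for 7 of the 10 genes as deposited, but for 4 of 10 with arrays centered on their medians or quantile normalized, so the count has no stable direction. Glyma01g39020, Glyma01g39860, Glyma02g14880 and Glyma06g17610 had the larger SD under drought in all 3 scalings, and Glyma01g41260, Glyma01g31850 and Glyma01g36230 had it with water in all 3. For both AREB1 matches and the GRAM domain gene, the group with the larger SD changed with the scaling.

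**Figure D4:**
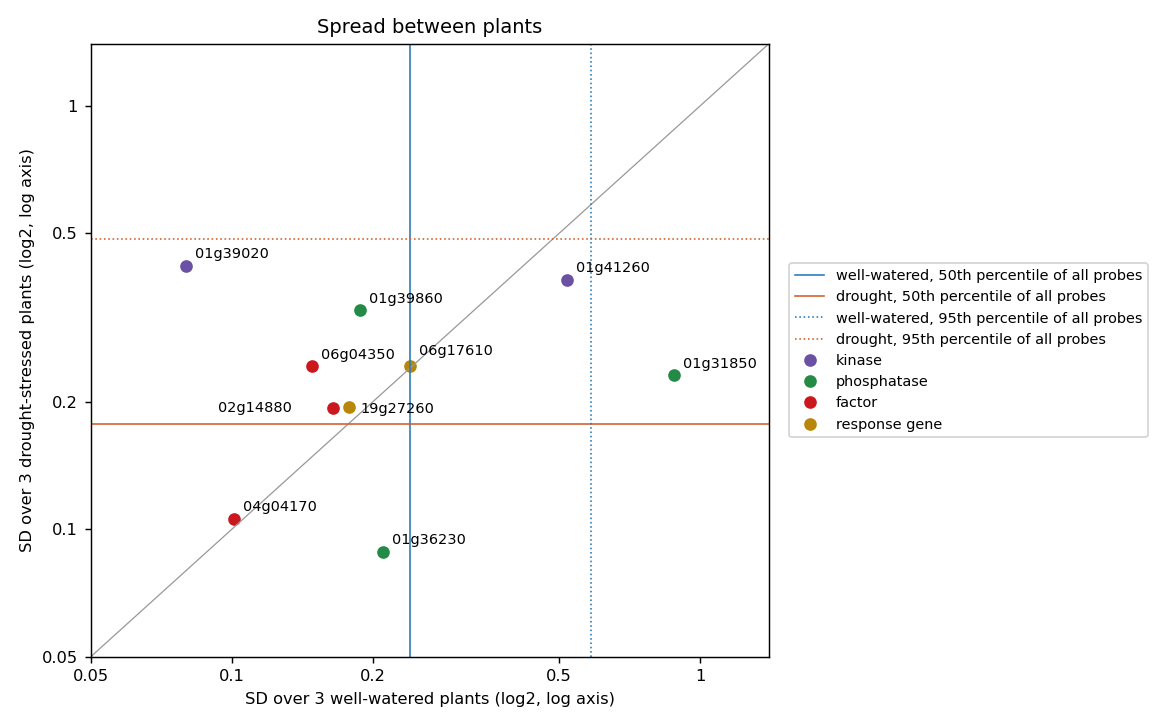
SD over the 3 drought-stressed plants (y axis) against SD over the 3 well-watered plants (x axis), both in log2 on log axes, for the 10 genes colored by role, with the median and 95th percentile of all probes as lines. Glyma01g39020 lies at 0.080 with water and 0.42 under drought, and Glyma01g31850 lies past the 95th percentile with water only.

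Drought-stressed plant 4 was the highest of its group for 6 of the 10 genes and the lowest for 0. Plants 1 and 2 were each the lowest for 5. Relative to the mean of its group, plant 4 stood 0.14 log2 higher on average over the 10 genes, while its array median was -0.029, the lowest of the drought-stressed arrays. The well-watered plants 14, 15 and 16 were the highest for 4, 2 and 4 genes and the lowest for 6, 0 and 4. The rises of the AREB1 matches over the well-watered mean ran from 1.93 to 2.38 for Glyma06g04350 and from 1.84 to 2.04 for Glyma04g04170 in single drought-stressed plants. Those of the response genes ran from 3.21 to 3.68 for Glyma06g17610 and from 3.21 to 3.60 for Glyma19g27260.

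The 10 genes lie on 5 chromosomes by their IDs, 5 of them on chromosome 1. The 5 genes on either side of each were taken in the order of gene IDs. Of the 100 neighbors, 37 had a difference of the same sign as the gene beside them. The median difference of all probes was itself below 0, at -0.050, and nothing is read from this count. Of all 100, 6 were called higher and 6 lower, together 12% against 9.46% of all probes, with a median log2 difference of -0.046. Of the neighbors of the GRAM domain gene, 0 were called by limma or by the methods' t-test and 1 had an unadjusted limma p under 0.05, and the neighbors of the HVA22D match ran from -1.08 to 0.20, with 1 called lower. The neighbors of Glyma04g04170 held 2 called lower and none higher. Glyma06g04350 had 1 called higher, Glyma06g04320 (1.82, adjusted p = 4.5e-04 from limma), and 1 called lower, Glyma06g04300 (-2.38, adjusted p = 5.0e-05). Beside the phosphatase gene Glyma01g39860, the adjacent Glyma01g39850, a hydrolase gene, was lower (-2.74, adjusted p = 2.2e-04 from limma). A further neighbor of it, Glyma01g39810, was higher like the phosphatase gene and by more (2.22, adjusted p = 5.5e-04 from limma). Around Glyma01g39020, which was lower, the median of the 10 neighbors was 0.52, and 2 of them were called higher. These neighbors were named after their values were seen.

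**Figure D5:**
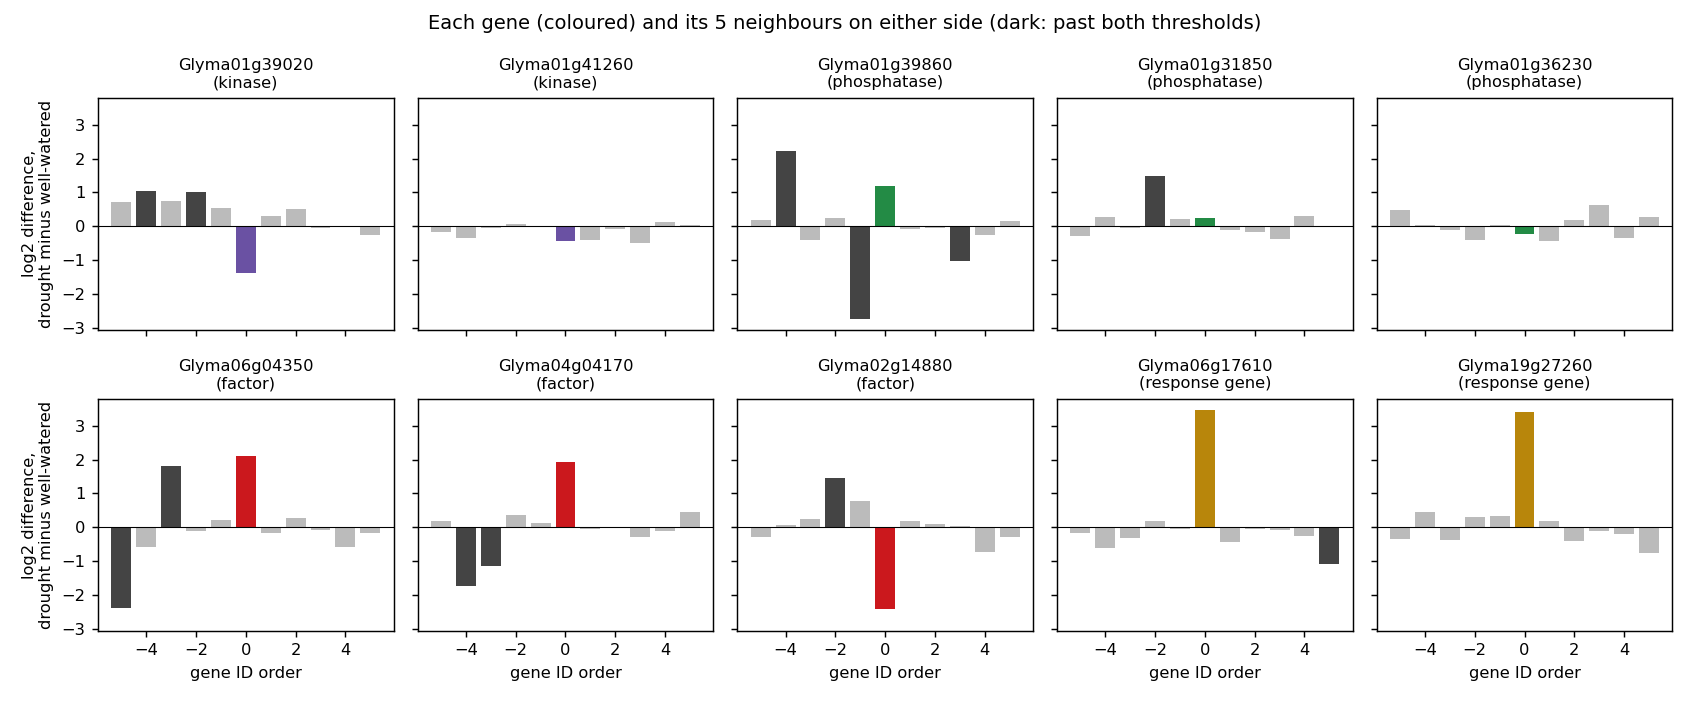
Log2 difference, drought-stressed minus well-watered (y axis), of each of the 10 genes (colored by role, at 0) and of the 5 genes on either side by gene ID order (x axis), with neighbors past both thresholds dark. The HVA22D match and the GRAM domain gene stand alone at 3.48 and 3.40 among neighbors that reach at most 0.20 and 0.44.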

How the data were processed

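Leaf RNA of the 6 V6 plants was hybridised to Affymetrix soybean arrays. The authors deposited log2 values. Expression Console gave gene-level RMA signals with its normalization turned off, and GeneSpring then scaled each array to its 75th percentile. In the deposited log2 values, every probe is also centered, so that the median of its 6 values is 0. When the groups do not overlap, the 2 values closest to the gap are therefore mirror images. That centering cancels in a difference between groups. The scaling of each array to its 75th percentile can move every difference by a constant and cannot be undone from these values. A second deposited table holds the authors' own comparison, as a score (a signed fold change) and a p-value from a t-test before and after Benjamini-Hochberg adjustment. None of these was used, and only the gene ID of each probe was read from that table.

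The fit used limma 3.58.1 (lmFit, eBayes) under R 4.3.3 on all 66195 probes without a filter, with Benjamini-Hochberg adjustment over them. Degrees of freedom were 4 residual and 5.93 prior, and log2 differences had a median standard error of 0.19. With signals given only relative to each probe, precision is given by this error and not by signal over background, and the number of arrays limits it. With 3 plants per group, the smallest p of an exact permutation test is 0.1. Plants were treated as independent, although some may have shared a pot. The p-values of limma weigh each difference against the spread between these plants, with a variance drawn in part from all probes. The code was tested on simulated data. The 10 genes shared identical values with 0 other probes. Alternatives were arrays centered on their medians, quantile normalization, the t-test of the methods, array weights, a robust prior, no minimum fold, and each plant left out in turn.

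The members and lists were chosen with earlier results of these data known. Lists were keywords applied to the descriptions of 1974 gene IDs, taken from the paper for descriptions only. These 1974 are only a part of the genes that the paper annotates, and cover chromosome 1 in the main. RefSeq descriptions had been planned for the lists, but the RefSeq table used here holds no descriptions and did not match these gene IDs. The keywords were adapted to these descriptions after the data were seen. Those for bZIP factors of all kinds and for further kinases and phosphatases were added then. Beside the 10 genes, the rule names the AREB3 and HVA22 matches, the 3 probes nearest to each AREB1 match, and the largest changes called in each list. Similarity of patterns was the root mean square difference over the 6 arrays. Sequences are not analysed here.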

Additional observations from a re-analysis of the deposited data

How the results depend on the processing

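The number of the 10 genes called stayed at 7 under 11 of 12 alternatives and was 5 with the t-test of the methods, which did not call Glyma01g39020 or Glyma01g39860. With each plant left out in turn, the log2 difference of Glyma01g31850 ran from -0.14 (without well-watered plant 16) to 0.72, and that of Glyma01g06560 from -0.20 to 0.15. Glyma01g06560 had -0.10 with array weights, -0.097 without well-watered plant 16 and -0.20 without drought-stressed plant 1. Over all probes, 2864 were called higher and 3401 lower, against 1808 and 2000 with the t-test of the methods, and 5131 and 5706 with no minimum fold. The t-test called 0 genes in the list of SNF1-related and calcium-dependent kinases and 0 in that of protein phosphatases, against 1 each with limma. With no minimum fold, the former list held 2 called genes and the guard cell list 1. The number of genes with the larger SD under drought was 7 as deposited and 4 with arrays centered on their medians and with quantile normalization. The cause of these changes was not tested. Centering arrays on their medians moved the median difference of all probes from -0.050 to -0.016. No paired analysis was possible because the plant numbers differ between the groups. Filters on dim probes and background correction could not be tried, since the values hold no absolute level.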
